A study of Drosophila melanogaster with 18 samples.

Results

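The nuclear respiratory chain genes are the genes of the fly nucleus that encode subunits of complexes I to V of mitochondrial oxidative phosphorylation. They were taken here by symbol: the prefixes ND- for complex I, Sdh for complex II, UQCR- for complex III, COX for complex IV and ATPsyn for complex V. Paralogs of these subunits that the rule names one by one, such as COX4L and ND-51L1, were set aside, and 9 of them were found in the files. The rule gave 79 of the 17575 genes counted. Complex I had 37 of them, complex II 8, complex III 9, complex IV 13 and complex V 12. Of these, 15 carry the symbol of another subunit with an added L, and Sdhaf3 is an assembly factor of complex II rather than a subunit. The rule uses symbols and no measured value.

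RNA was measured by total RNA-seq, after depletion of ribosomal RNA, in testes dissected from males aged 1 to 3 days. The control was mod07570/+, which has a single copy of the mutant allele and keeps a wild-type copy of *modulo*, although its sample titles call it wild type. The *modulo* mutant was modL8/mod07570, so that both genotypes carry mod07570. Each genotype had 3 replicates, each sequenced on 3 lanes, which were summed. *modulo* encodes the fly homolog of Nucleolin, an RNA-binding protein of the nucleolus. A testis holds germ cells of all stages as well as somatic cyst, hub and sheath cells, and in such bulk samples fewer cells of a type and less RNA per cell cannot be told apart.

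Complexes I to IV pass electrons from NADH and succinate to oxygen, complexes I, III and IV pump protons as they do so, and complex V, the ATP synthase, uses the proton gradient to make ATP. All but complex II also hold subunits encoded by the mitochondrial genome, so the nuclear subunits described here meet partners made inside the organelle. In fly spermatogenesis the mitochondria of each spermatid fuse, wrap into the nebenkern and then elongate along the growing tail, and many subunits have a second, testis-biased copy in the genome.

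Total counts were between 87119182 and 94915971 in the controls and between 90898263 and 107435753 in the mutants, and the members took 0.74% to 0.826% of them in the controls and 0.734% to 0.877% in the mutants. The label check came out on the labelled side, with *mod* at 2063, 1963 and 2109 normalised counts in the controls and 196, 182 and 121 in the mutants. Normalised counts are read pairs scaled to a common effective library size. Of 7 spermatid marker genes 0 passed the test described below (1 at an unadjusted p under 0.05, 2 with DESeq2), of 8 spermatocyte markers 2 were higher and 1 lower, and of 6 early germline markers 1 was higher. Of 7 hub and cyst cell markers 1 was higher and 3 were lower, and their summed level was 18686 to 19037 in the controls and 14810 to 15313 in the mutants. The 12 sheath muscle markers summed to 151214 to 172266 and to 117851 to 167084, with 0 called (4 at an unadjusted p under 0.05, 3 with DESeq2). Of the 10 markers of the accessory gland, a neighbouring organ, 1 was called, and they summed to 4174 to 36251 in the controls and 9890 to 23526 in the mutants. The call was Acp33A, with 2.0, 0.0 and 4.2 normalised counts in the controls and 260.5, 96.1 and 306.7 in the mutants. The median log2 fold change of the 10 was -0.35, with 2 values above 0. The part of these cell types in the results below was not tested.

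Nearly all of the respiratory chain genes were abundantly transcribed in both genotypes. Of the 79 members, 78 had enough counts to be tested. The exception was ND-MNLL, a subunit of complex I on chromosome X from 7893053 to 7893798 on the minus strand (BDGP6/dm6), listed at 0 in all 18 lanes. In the annotation 100% of its exon bases lie in exons of CG45089 on the same strand, which was also listed at 0 in the controls, so whether ND-MNLL is transcribed cannot be read from these counts. Among the other members the mean level per kilobase of exon, over all 6 samples, ran from 542 normalised counts for COX7AL2 to 54342 for COX7CL, both complex IV genes named as copies of other subunits.

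Loss of *modulo* was accompanied by few and small changes in these genes. With edgeR's quasi-likelihood test and Benjamini-Hochberg adjustment over all 14059 genes tested, 3 of the 78 members were higher in the mutant at an adjusted p under 0.05 and 0 were lower. Over all tested genes the test called 32.3%, with 14.5% higher and 17.8% lower. Of the 7037 protein-coding genes with a mean of at least 1000 normalised counts, it called 876 higher and 604 lower. Before adjustment 14 members were higher with a p under 0.05 and 1, ATPsynCF6, was lower, against 43.7% of all genes in either direction. DESeq2 called 10 members higher and 1 lower, beside 37.1% of all genes (17.6% higher and 19.4% lower). The 3 called genes were ATPsynC of complex V, ND-B17 of complex I and COX7AL2 of complex IV.

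Both genotypes carry the same replicate numbers. The fit with the replicate number as a block called more members, 21 higher and 2 lower. It also called more of all genes, 45.6% (22.2% higher and 23.4% lower). The 3 genes of the unblocked fit were among these 23. The blocked calls comprised 14 genes of complex I, 0 of complex II (4 at an unadjusted p under 0.05, and 1 with DESeq2 without the block) and 3 each of complexes III, IV and V. The genes it called lower were ND-39 and ATPsynCF6. Without the block, leaving out mutant replicate 1 gave 29 members called higher and 0 lower (unadjusted, 1 was below 0.05), where all genes tested gave 42.4% (20.1% higher and 22.3% lower). Leaving out any other library gave 0 calls among the members, with 2 to 13 of them higher at an unadjusted p under 0.05. All genes then gave 19.9% to 22.4% without a control replicate, and 18.8% and 25.3% without mutant replicate 2 or 3.

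The direction of the small differences was mostly upward. The median log2 fold change of the members, mutant over control, was 0.16, against 0.02 over all genes tested, and 61 of the 78 values were above 0, against 52.1% of all genes. In the 7037 protein-coding genes with a mean of at least 1000 normalised counts, the median was 0.05 and 58.0% of values were above 0. The values ran from -0.28 for ATPsynCF6 to 0.75 for COX7AL2. With same-numbered replicates set side by side, 49 members were higher in the mutant in all 3 pairs and 9 were lower in all 3, where all genes gave 35.4% and 33.4%. In 11 members the 3 mutant samples lay above the 3 controls without overlap and in 3 they lay below, where all genes gave 23.2% and 24.1%. When library sizes were scaled by total counts alone, the median of the members was 0.10 with 55 values above 0, that of all genes was -0.04, and the calls were 1 higher and 3 lower, beside 30.6% of all genes. Upper-quartile factors left 1 member called (all genes 31.4%), and so did lane 3 alone (all genes 27.5%).

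The median standard error (SE) of a member's log2 fold change was 0.133, beside 0.14 in all genes and 0.109 in the 7037 protein-coding genes with a mean of at least 1000 normalised counts. For 55 of the 78 members the whole 95% interval lay within a 1.5-fold change in either direction, a log2 value of 0.58, and for 74 it lay within a 2-fold change. A single member, COX7AL2, had an estimate of at least 1.5-fold, as had 25.4% of all genes tested.

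**Figure D1:**
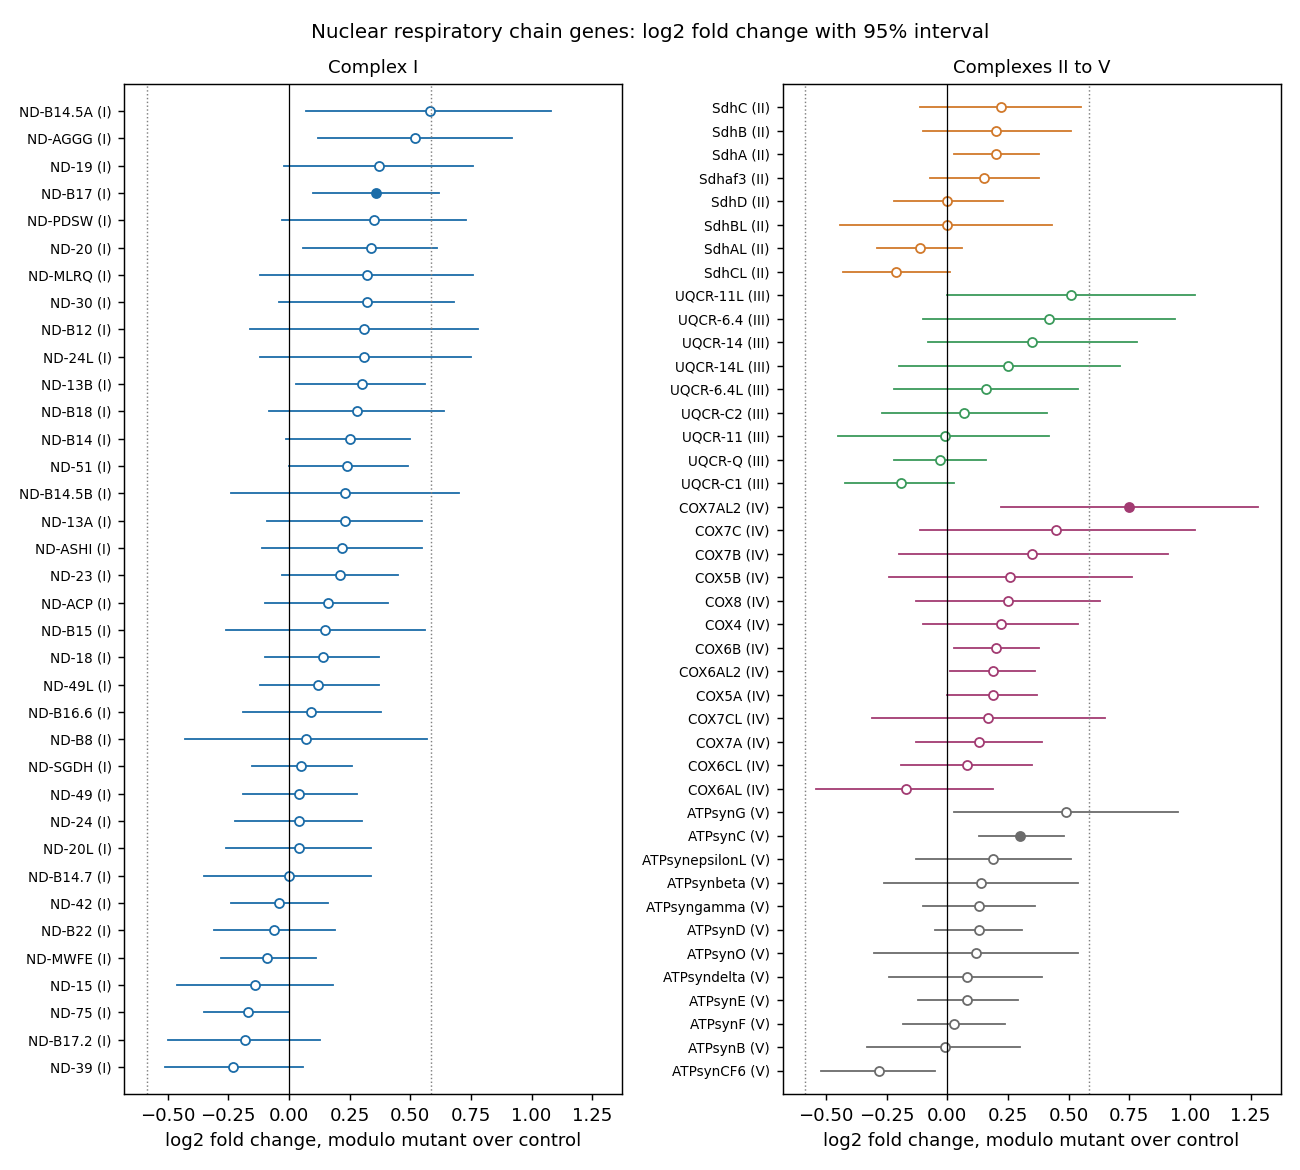
Log2 fold change, *modulo* mutant over control, of the 78 tested respiratory chain genes (points) with the 95% interval (lines), n = 3 per genotype; filled points had an adjusted p under 0.05 with edgeR and dotted lines mark a 1.5-fold change. The estimates run from -0.28 to 0.75, 61 of them are above 0, and the 3 filled points are ND-B17, COX7AL2 and ATPsynC.

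The best-supported change was that of ATPsynC, the subunit whose copies form the rotating c-ring of the ATP synthase in the inner membrane (FBgn0039830, chromosome 3R from 31216145 to 31219630, minus strand). It had 21002, 20087 and 21196 normalised counts in the controls and 24430, 25806 and 26617 in the mutants. The groups did not overlap, and every mutant replicate stood above every control. The log2 fold change was 0.30 (SE 0.0747, adjusted p = 0.021, edgeR), a 1.23-fold difference. It was also called in 14 of 20 alternative settings, whose adjusted p ran from 0.000345 to 0.0931. It was lost when libraries were scaled by total counts alone and whenever a library other than mutant replicate 1 was left out.

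COX7AL2 is named as a copy of COX7A, a small membrane subunit of cytochrome c oxidase, and was the member with the lowest level per kilobase (FBgn0085201, chromosome 2L from 2192525 to 2197912, minus strand). It had 289, 450 and 403 normalised counts in the controls and 480, 662 and 781 in the mutants. The lowest mutant replicate was 480 and the highest control 450, so the groups came close to each other without overlap. The log2 fold change was 0.75 (SE 0.224, adjusted p = 0.0413, edgeR), with a 95% interval from 0.22 to 1.28. It was called in 13 of the 20 settings, with adjusted p from 0.00107 to 0.127, and was not called from lane 3 alone, with upper-quartile factors, or without any library other than mutant replicate 1.

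ND-B17, an accessory subunit of the membrane arm of complex I (FBgn0001989, chromosome 2L from 15749319 to 15751078, minus strand), had 4549, 5323 and 4835 normalised counts in the controls. In the mutants it had 5581, 6327 and 6970. The groups did not overlap. The log2 fold change was 0.36 (SE 0.109, adjusted p = 0.0437, edgeR), and the call is close to the threshold. It was kept in 10 of the 20 settings, with adjusted p from 0.00922 to 0.142.

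**Figure D2:**
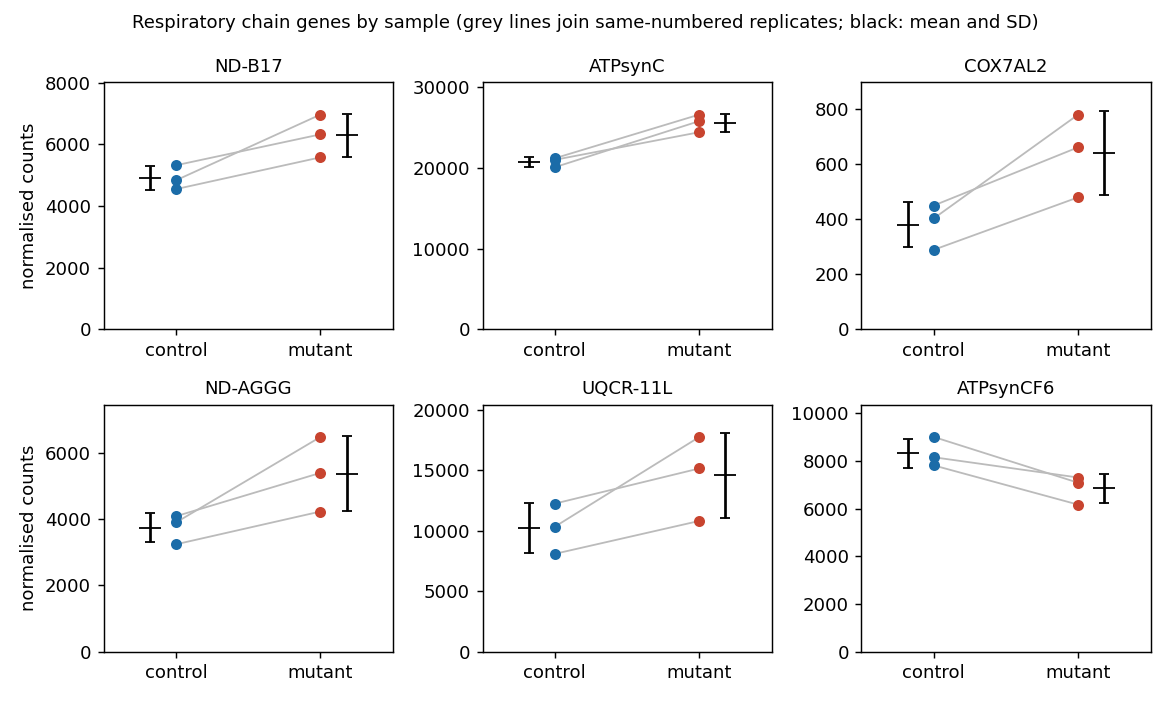
Normalised counts of 6 respiratory chain genes in each sample (points), with grey lines joining same-numbered replicates and black marks giving the mean and SD of each genotype, n = 3; ND-B17, ATPsynC and COX7AL2 passed the unblocked test and ND-AGGG, UQCR-11L and ATPsynCF6 passed with the replicate block. All 3 lines slope up in each panel but that of ATPsynCF6, where all 3 slope down.

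Complex I takes electrons from NADH through a peripheral arm, made of an NADH-oxidising N module and a quinone-reducing Q module, and pumps protons through its membrane arm. The median log2 fold change of its 36 tested members was 0.18, with 28 values above 0 and ND-B17 as the single call. By sub-list the median was 0.07 for the 7 genes of the N module, 0.27 for the 8 of the Q module and 0.19 for the 16 tested accessory genes of the membrane arm. The 7 catalytic core subunits of the peripheral arm are made from nuclear genes, and their median was 0.21.

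Within the N module, ND-75, which carries several iron-sulfur clusters, had 12679, 13671 and 12941 normalised counts in the controls and 11195, 11943 and 11696 in the mutants. All mutant values lay below all control values. The log2 fold change was -0.17 (SE 0.0739, adjusted p = 0.117, edgeR). Its 2 core neighbours in the module had positive values. ND-51, which holds the flavin and binds NADH, had a log2 fold change of 0.24 (SE 0.103, adjusted p = 0.113, edgeR), and ND-24 had 0.04 (SE 0.11). With the replicate block ND-51 was called at an adjusted p of 0.0383 and ND-75 was at 0.0803. ND-13A, the member of complex I with the highest level per kilobase, had 20327, 25988 and 23038 normalised counts in the controls and 23406, 27133 and 30865 in the mutants, and the groups overlapped.

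The core subunits of the Q module did not pass the test, with log2 fold changes from 0.04 for ND-49 to 0.34 for ND-20. ND-20, which carries the last iron-sulfur cluster before quinone, had 1796, 2062 and 2054 normalised counts in the controls and 2136, 2614 and 2716 in the mutants. The groups did not overlap, and the log2 fold change was 0.34 (SE 0.117, adjusted p = 0.0666, edgeR). With the replicate block it was called (adjusted p = 0.00932, edgeR). It was also the complex I member with the lowest level per kilobase, 1669 normalised counts.

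ND-30, which helps to build the quinone-reducing part, had a log2 fold change of 0.32 (SE 0.153) and did not pass in the reported fit. It passed with the block (adjusted p = 0.0268, edgeR) and, without the block, only when mutant replicate 1 was left out (0.0177). ND-23, which carries iron-sulfur clusters, had 0.21 (SE 0.101) and did not pass with or without the block. ND-49, which lines the quinone site, was at 0.04 (SE 0.0982), with 2718, 2787 and 3057 normalised counts in the controls and 2653, 3201 and 2979 in the mutants. These groups overlapped fully.

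Accessory subunits of the Q module held the extremes of complex I. ND-B14.5A had the highest estimate of the complex, with 2153, 2817 and 2614 normalised counts in the controls and 2710, 3768 and 4846 in the mutants. Mutant replicate 1 fell below control replicate 2, so the groups overlapped, and the log2 fold change was 0.58 (SE 0.214, adjusted p = 0.0804, edgeR, and 0.00613 with the block). ND-39 had the lowest estimate, with 14058, 16615 and 16025 normalised counts in the controls and 11454, 13513 and 14974 in the mutants. Its log2 fold change was -0.23 (SE 0.121, adjusted p = 0.202, edgeR), it was lower in all 3 same-numbered pairs, and the blocked fit called it at 0.0465.

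In the membrane arm, ND-AGGG, an accessory subunit, had 3236, 4082 and 3894 normalised counts in the controls and 4225, 5390 and 6473 in the mutants. The groups did not overlap, and the log2 fold change of 0.52 (SE 0.169) narrowly missed the threshold (adjusted p = 0.0541, edgeR) and passed it with the block (0.00297). ND-AGGG had a fractional count in 15 of the 18 lanes, more lanes than any other member, and how many of its reads were shared was not measured. ND-19 and ND-PDSW, further accessory subunits, had log2 fold changes of 0.37 and 0.35. They were called with the block and not in the reported fit. Without the block, both were called when mutant replicate 1 was left out (adjusted p = 0.0147 and 0.0159, edgeR). ND-19 was also called with the trend over exon length removed (adjusted p = 0.045, edgeR). At the other end, ND-15 had a log2 fold change of -0.14, with 11059, 13982 and 13186 normalised counts in the controls and 9739, 12352 and 12636 in the mutants, which overlapped. DESeq2 called 4 members of complex I higher. Some members were called lower under other settings without the block, ND-75 with scaling by total counts alone (log2 fold change -0.23, adjusted p = 0.0483, edgeR) and ND-B17.2 with the trend over exon length removed (-0.24, adjusted p = 0.0443, edgeR).

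Complex II, succinate dehydrogenase, links the citric acid cycle to the chain and has no subunit from the mitochondrial genome. Its 4 subunits had log2 fold changes from 0.00 to 0.22 and none was called (1 at an unadjusted p under 0.05, and 1 with DESeq2). SdhA, the flavoprotein that oxidises succinate, had 26826, 28608 and 26498 normalised counts in the controls and 32345, 30788 and 31215 in the mutants. The groups did not overlap, with a log2 fold change of 0.20 (SE 0.0742, adjusted p = 0.0772, edgeR). DESeq2 called it at 0.0152.

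SdhB, the iron-sulfur subunit, had a log2 fold change of 0.20 (SE 0.129) and SdhC, a membrane anchor, 0.22 (SE 0.139), each higher in all 3 same-numbered pairs but with overlapping groups. SdhD, the other anchor, had 12393, 14851 and 13702 normalised counts in the controls and 12702, 14049 and 14308 in the mutants, with a 95% interval of the log2 fold change from -0.22 to 0.23. The assembly factor Sdhaf3 had 0.15 (SE 0.0943).

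The 3 copies of complex II subunits were the only such group with no value above 0. SdhCL, the complex II member with the highest level per kilobase, had 17465, 20880 and 20205 normalised counts in the controls and 16273, 16721 and 17643 in the mutants, with a log2 fold change of -0.21 (SE 0.0931, adjusted p = 0.131, edgeR). SdhAL had 18146, 20044 and 19432 against 17842, 17440 and 18004, without overlap, and a log2 fold change of -0.11 (SE 0.0747). SdhBL had 28530, 25338 and 24227 against 33670, 23296 and 20890, so that replicate 1 was the highest of each genotype, unlike in nearly all other members. None of these copies passed the test (0 at an unadjusted p under 0.05, 0 with DESeq2), and SdhCL passed only where libraries were scaled by total counts alone or, with or without the block, the trend over exon length was removed.

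Complex III passes electrons from ubiquinol to cytochrome c. Its 9 members had a median log2 fold change of 0.16, and 0 were called (1 at an unadjusted p under 0.05, 0 with DESeq2). UQCR-C1, a core subunit related to mitochondrial processing peptidases, had 36465, 42814 and 39209 normalised counts in the controls and 32183, 34234 and 37161 in the mutants. It was lower in all 3 same-numbered pairs, but the groups overlapped and the log2 fold change was -0.19 (SE 0.0964, adjusted p = 0.171, edgeR). The other core subunit, UQCR-C2, had a log2 fold change of 0.07 (SE 0.143).

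The small subunits of complex III and their copies had log2 fold changes from -0.03 for UQCR-Q (SE 0.0806) to 0.51 for UQCR-11L. UQCR-11L, a copy of the small accessory subunit UQCR-11, had 8082, 12232 and 10323 normalised counts in the controls and 10802, 15138 and 17740 in the mutants. Mutant replicate 1 lay below control replicate 2, so that the groups overlapped although all 3 same-numbered pairs were higher in the mutant. The log2 fold change was 0.51 (SE 0.216, adjusted p = 0.114, edgeR), and the blocked fit called it at 0.00581. Its partner UQCR-11 was at -0.01 (SE 0.184), with 2175, 2656 and 2637 normalised counts against 1822, 2653 and 2939.

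UQCR-14L, the complex III member with the highest level per kilobase, and UQCR-6.4L had log2 fold changes of 0.25 (SE 0.194) and 0.16 (SE 0.159). Their partners UQCR-14 and UQCR-6.4 had 0.35 and 0.42 and were called with the block. Of the exon bases of UQCR-14, 100% lie opposite exons of CG32576, and the counting was by strand.

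Complex IV, cytochrome c oxidase, hands the electrons to oxygen around a core made by the mitochondrial genome. All 8 members that carry the plain symbol of a subunit had a positive log2 fold change, from 0.13 to 0.45, and all 8 were higher in all 3 same-numbered pairs, but 0 of these 8 were called (2 at an unadjusted p under 0.05, 1 with DESeq2). COX4, which binds regulatory nucleotides in mammals, had 3778, 4463 and 4303 normalised counts in the controls and 4012, 5155 and 5451 in the mutants, with a log2 fold change of 0.22 (SE 0.134). COX5A, on the matrix side, had 12039, 12781 and 13531 against 14133, 14531 and 14940. The groups of COX5A did not overlap, and its log2 fold change was 0.19 (SE 0.078, adjusted p = 0.114, edgeR).

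COX5B, the zinc-binding subunit, had a log2 fold change of 0.26 but a wide error (SE 0.211), with 2821, 3985 and 3486 normalised counts against 2951, 4477 and 4919. COX6B, which faces the intermembrane space, had 7279, 7871 and 7532 against 8411, 8655 and 9080. Its groups did not overlap, and its log2 fold change was 0.20 (SE 0.0749). It passed with the block (adjusted p = 0.0464, edgeR) and not in the reported fit (0.0778). Without the block, DESeq2 called it at 0.028, and edgeR at 0.045 when mutant replicate 1 was left out. COX7C had the highest estimate of the 8, 0.45 (SE 0.238, adjusted p = 0.192, edgeR, and 0.0129 with the block).

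The copies in complex IV differed among themselves. COX6AL, a copy of the subunit that the gene levy encodes, had 15543, 20244 and 19245 normalised counts in the controls and 13223, 17466 and 18092 in the mutants, a log2 fold change of -0.17 (SE 0.153). COX6AL2 had 22879, 24656 and 23044 against 27511, 26314 and 26478, without overlap, and 0.19 (SE 0.0737, adjusted p = 0.0968, edgeR). COX6AL2 shares 67% of its exon bases with Ir75d on the same strand, so its level is uncertain. COX6CL and COX7CL, among the most abundant members per kilobase, were at 0.08 (SE 0.114) and 0.17 (SE 0.203).

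Complex V had a median log2 fold change of 0.12 over 12 members, with ATPsynC as its call. The 3 subunits of the catalytic F1 head that the symbol rule takes had values close to each other: ATPsynbeta, the catalytic subunit, 0.14 (SE 0.168), ATPsyngamma, the rotor shaft, 0.13 (SE 0.0982), and ATPsyndelta, at the foot of the shaft, 0.08 (SE 0.134). ATPsynbeta had 13932, 17781 and 17235 normalised counts in the controls and 13906, 20064 and 20003 in the mutants, and in both genotypes replicate 1 was the lowest. ATPsyndelta had the lowest level per kilobase of the complex, 879, on an exon length of 3817 bases that is the longest among the members. ATPsynepsilonL, a copy of the subunit that the gene sun encodes, was at 0.19 (SE 0.136).

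The subunits of the membrane part and the stalk, which anchor the head and let protons through, ranged most widely in complex V. ATPsynCF6, coupling factor 6 of the outer stalk, had 7820, 9014 and 8162 normalised counts in the controls and 6171, 7090 and 7310 in the mutants. It was the lowest member of all by log2 fold change, -0.28 (SE 0.0988), and its groups did not overlap. The adjusted p was 0.0694 with edgeR, 0.0176 with the block and 0.0383 with DESeq2 without the block. It was called in 5 of the 20 alternative settings, whose adjusted p ran from 0.00321 to 0.185. ATPsynG, a small membrane subunit, had 5643, 7933 and 7092 against 7348, 10150 and 11540, with a log2 fold change of 0.49 (SE 0.193, adjusted p = 0.0949, edgeR, and 0.00383 with the block). ATPsynB, part of the outer stalk and the most abundant complex V member per kilobase, was at -0.01, with a 95% interval from -0.33 to 0.30.

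Copies of subunits were in most cases more abundant in testis than their partners, in both genotypes. All 15 members named as copies were set beside the gene whose symbol they extend, or, for COX6AL, COX6AL2, COX6CL and ATPsynepsilonL, beside levy, cype or sun, which encode the same subunits under other names. Per kilobase of exon, 11 of the 15 copies exceeded their partner in all 3 controls, and 11 did so in all 3 mutants. COX7CL stood 15.8-fold over COX7C in the controls, UQCR-11L 14.9-fold over UQCR-11, COX6CL 9.31-fold over cype and SdhBL 9.0-fold over SdhB. At the lower end of the 11 were ND-24L, 3.29-fold over ND-24, and COX6AL, 3.47-fold over levy.

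The copies that did not exceed their partner were SdhAL, at 0.9 times SdhA, COX6AL2, at 0.768 times levy, ATPsynepsilonL, at 0.565 times sun, and COX7AL2, at 0.0365 times COX7A. The ratio of COX6AL2 uses its full exon length, of which 67% is shared with Ir75d on the same strand. Its place below levy is therefore uncertain. Of the 9 copies set aside by the rule, 8 exceeded their partner in all controls, with COX4L at 23.3 times COX4, and ATPsynbetaL, at 0.54 times ATPsynbeta, did not. These are ratios of levels, which rest on exon lengths from the annotation.

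The ratio of copy to partner was then compared between genotypes over 24 pairs, the 15 above and the 9 set aside. The ratio of UQCR-11L to UQCR-11 was 13.5, 16.8 and 14.3 in the controls and 21.6, 20.8 and 22 in the mutants. The ratio of COX6AL to levy was 3.21, 3.54 and 3.63 in the controls and 2.15, 2.32 and 2.12 in the mutants. Neither pair overlapped between genotypes, and the log2 ratio, mutant minus control, was 0.54 for the former and -0.66 for the latter. For SdhCL over SdhC it was -0.41, with ratios of 5.55, 5.54 and 5.73 against 4.90, 4.03 and 3.79.

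Of the 15 ratios, 6 were lower and 3 higher in the mutant without overlap. Of all single genes tested, 24.1% were lower and 23.2% higher without overlap, and the share over other gene pairs was not computed. The log2 ratio differed between mutant and control by -0.66 (SE 0.0685) for COX6AL, by -0.32 (SE 0.0386) for SdhAL and by -0.30 (SE 0.0315) for ND-20L. In the first of these pairs levy itself had a log2 fold change of 0.49 and COX6AL had -0.17. COX6AL2 has the same partner, so these 2 ratios are not independent. With 3 samples against 3, an exact permutation test of a ratio has a smallest two-sided p of 0.1 and cannot reach the threshold, so the ratios are given as a description.

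**Figure D3:**
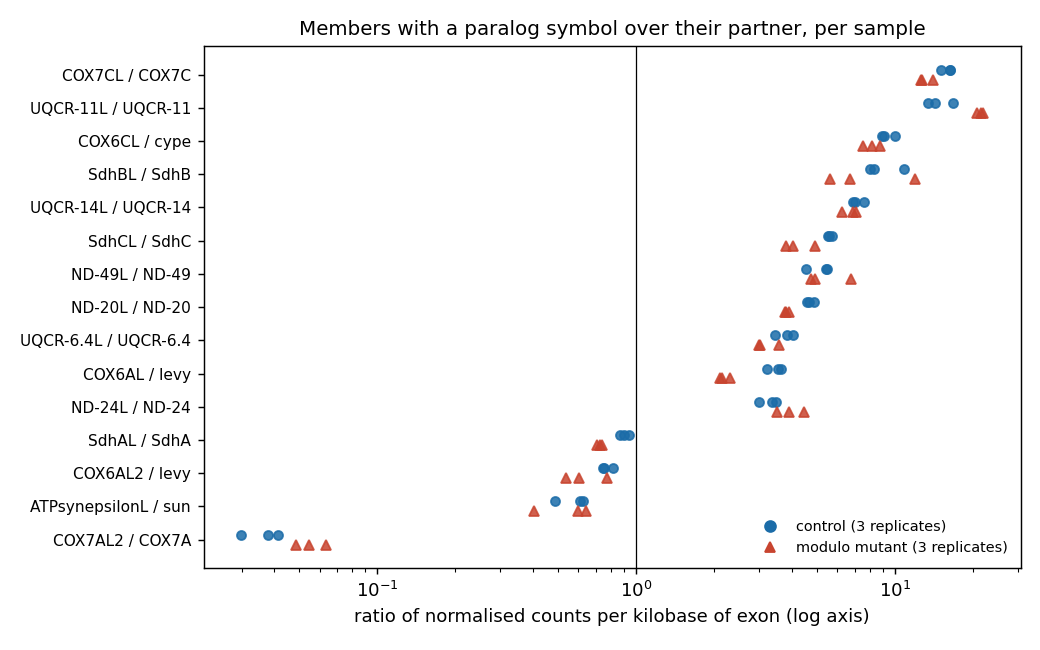
Ratio of normalised counts per kilobase of exon, copy over partner, for the 15 pairs of respiratory chain genes (log axis), with each control replicate as a circle and each mutant replicate as a triangle. In 11 pairs all 6 points lie above 1, and COX7AL2 over COX7A lies lowest, at 0.0365 in the controls.

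The members moved together between replicates of the same genotype. For each gene, the log2 normalised count in a sample was set against the mean of its genotype. The median deviation of the 78 members was -0.15, 0.12 and 0.04 in control replicates 1, 2 and 3, and -0.22, 0.05 and 0.16 in mutant replicates 1, 2 and 3. Control replicate 1 was the lowest of the controls in 74 of the 78 members, beside 41.5% of all genes, and mutant replicate 1 the lowest of the mutants in 72, beside 43.9%. Mutant replicate 3 was the highest mutant in 68. The distance between the medians of mutant replicates 1 and 3 thus exceeded the median difference between genotypes, 0.16.

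All complexes followed this order, complex III most widely (-0.35 in mutant replicate 1 and 0.22 in mutant replicate 3) and complex II least (-0.08 and 0.07). SdhBL and ND-49L were the clearest exceptions in the mutants, with replicate 1 as the highest sample in both: ND-49L had 19177, 16778 and 15136 normalised counts.

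**Figure D4:**
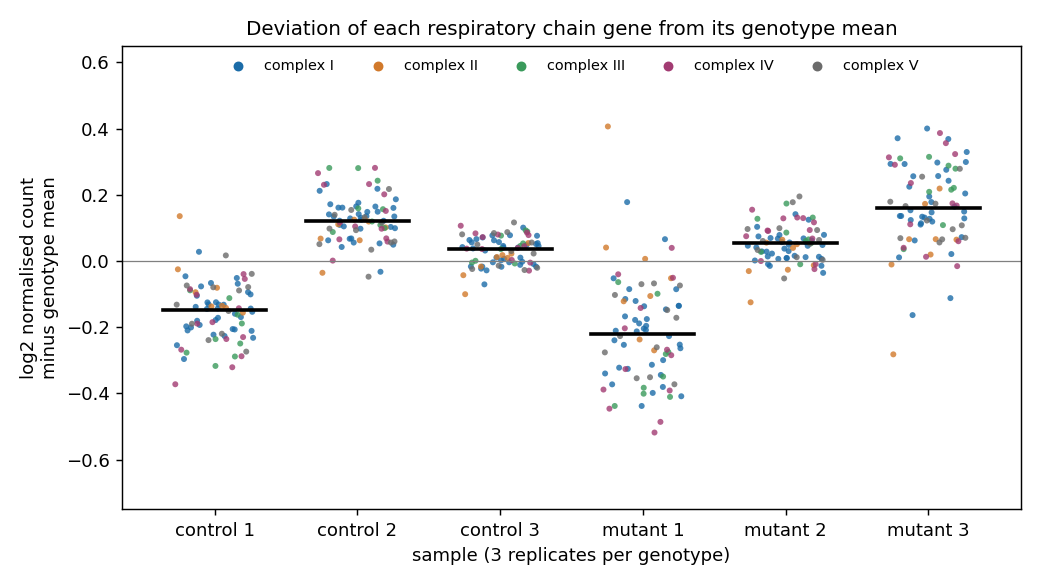
Log2 normalised count minus the mean of the genotype for each of the 78 tested respiratory chain genes (points, coloured by complex) in each of the 6 samples, with the median as a black bar. The medians run from -0.22 in mutant replicate 1 to 0.16 in mutant replicate 3, and nearly all points of replicate 1 lie below 0 in both genotypes.

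The order of the replicates went with gene length and was shared with other short genes. The members are short, with a median exon length of 843 bases against 1648 over all tested genes. The 2226 tested genes with under 700 bases of exon had median deviations of -0.13, 0.09 and 0.06 in the controls and -0.18, 0.03 and 0.16 in the mutants, the same signs as the members. The 1474 genes with 5000 bases or more had the opposite signs, with 0.14 in control replicate 1 and 0.24 in mutant replicate 1. In each length class below 2500 bases, replicate 1 of either genotype was further below 0 in the members than in all genes. Over the 78 members, which share their libraries, the Pearson correlation of log2 exon length with the deviation was 0.55 in control replicate 1 and 0.45 in mutant replicate 1.

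Exon length and the log2 fold change had a Pearson correlation of -0.26 across the 78 members, as a description. The 20 members under 700 bases had a median log2 fold change of 0.22 beside 0.10 in all genes of that length, the 33 members from 700 to under 1000 bases 0.19 beside 0.08, and the 9 from 1000 to under 1500 bases 0.20 beside 0.07. The 12 from 1500 to under 2500 bases had 0.02 beside 0.03, and the 4 from 2500 to under 5000 bases 0.13 beside -0.02, so that the medians did not fall steadily with length. When each sample's trend over exon length was removed, the median of the members was 0.12, and 12 members were called higher and 3 lower (all genes 38.3%, with 18.4% higher and 19.9% lower). With the replicate block as well these were 21 and 6 (all genes 47.8%, with 23.9% in each direction). The genes called lower without the block were ATPsynCF6, ND-B17.2 and SdhCL, and ATPsynC, ND-B17 and COX7AL2 remained among the calls. The part of RNA quality or library preparation in this trend was not tested.

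**Figure D5:**
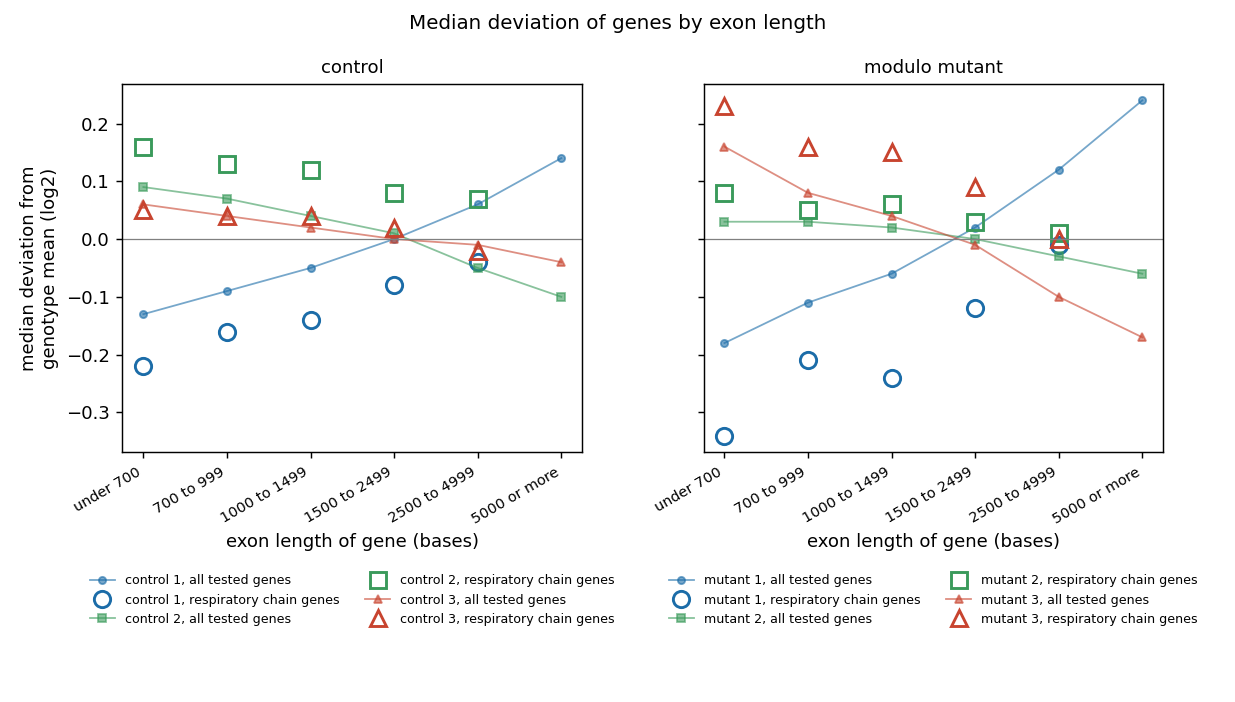
Median deviation from the genotype mean (log2) by class of exon length in bases, for each control replicate and each mutant replicate, with lines for all tested genes and open symbols for the respiratory chain genes. The lines of replicate 1 rise with length from -0.13 to 0.14 in the control and from -0.18 to 0.24 in the mutant, and the members under 700 bases lie further out, at -0.22 and -0.34.

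By position the members showed little. They lie on all major chromosome arms, with 13 on X and 2 on chromosome 4, and the 12 tested members on X had a median log2 fold change of 0.17, that of the 66 on autosomes being 0.16. Over all tested genes the medians were 0.12 on X and -0.01 on autosomes.

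Of 10 subunits of the same complexes under other names, cytochrome c included, 2 were higher in the mutant. Their median log2 fold change was 0.29, beside 0.16 in the members, and this difference was not tested. The gene ox, a small complex III subunit, had 10019, 13387 and 12645 normalised counts in the controls and 14342, 18234 and 21708 in the mutants (log2 fold change 0.59, adjusted p = 0.0407, edgeR), and levy had 0.49 (adjusted p = 0.0311, edgeR). Of cytochrome c itself, the copy Cyt-c-d, which is needed in the testis, was at -0.03 and the copy Cyt-c-p, used in other tissues, at 0.47 (SE 0.199, adjusted p = 0.117, edgeR).

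The subunits that the mitochondrial genome encodes had larger differences and wider errors. Of 13, 5 were higher in the mutant (9 with DESeq2), with a median log2 fold change of 0.98. For mt:Cyt-b of complex III it was 2.00 (SE 0.366, adjusted p = 0.00652, edgeR), with 28767, 35958 and 32764 normalised counts in the controls and 102003, 76744 and 212110 in the mutants. All 3 mutants lay above the controls, and mutant replicate 3 lay far above the other mutants. The nuclear and the mitochondrial subunits of complex IV stood at 0.23 for the median of the 8 plain-named members and at 0.98, 1.27 and 1.23 for mt:CoI, mt:CoII and mt:CoIII, which were called. Differences between these 2 sets were not tested.

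Other mitochondrial gene lists from the same fit differed in their counts. Of 15 genes of the citric acid cycle and pyruvate dehydrogenase, 1 was higher (Pdha) and 1 lower (kdn, citrate synthase, log2 fold change -0.58, adjusted p = 0.00419, edgeR), with a median of 0.09. Of 10 genes of mitochondrial DNA upkeep and regulation, 1 was higher, mtSSB, which binds single-stranded mitochondrial DNA. Of 72 tested genes of mitochondrial ribosomal proteins, 38 were higher in the mutant, with a median of 0.39 and a median standard error of 0.106. The members, with 3 of 78 called and a median of 0.16, stood below that list in both respects, and the difference was not tested.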

How the data were processed

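Per the labels and the paper's methods, the authors used STAR 2.7.1a on the BDGP6/dm6 genome, then featureCounts by strand on FlyBase genes, with multi-mapped pairs split over their positions. They deposited estimated counts per gene and lane, without normalization (657 to 773 genes per lane had a fractional count, 5 of the members among them). A series-wide table of the same lanes was left aside. Lanes were summed per replicate and rounded. A gene needed 10 counts in 3 samples to enter edgeR 4.0.16 in R 4.3.3 (TMM, quasi-likelihood, Benjamini-Hochberg over all 14059 genes), without a block. The standard error is the log2 fold change divided by the square root of F. DESeq2 1.42.0 was an alternative, as were other scalings and filters, ribosomal and mitochondrial RNAs left out, single lanes, unrounded sums, the replicate block and each replicate left out; removal of each sample's loess trend over exon length was chosen after seeing the data. Deviations used log2 of the normalised count plus 0.5.

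Symbols, positions and exon lengths came from annotation BDGP6.54 on the same assembly. The members and lists were chosen with earlier results of these data known. ATPsynEL of the rule's exclusions was not matched. Genes described singly are the core and F1 subunits, COX4, COX5A and COX5B, the copies, called genes and the extremes of level; ND-B14.5A, ND-39, ND-AGGG, ND-15, ND-19, ND-PDSW, COX6B, COX7C, UQCR-14, UQCR-6.4, ATPsynCF6 and ATPsynG fall outside that rule and were picked with their values in view.

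The labels number the replicates 1 to 3 in both genotypes and the series calls them biological replicates. Across all genes, deviations of same-numbered samples correlated at 0.572, 0.591 and 0.17, those of different-numbered samples at -0.595 to 0.088. Over all genes the numbers thus met the criterion for pairing (every correlation over 0.1). Over the 78 members the same-numbered correlations were 0.88, 0.343 and 0.456. Control replicate 2 with mutant replicate 3 had 0.779 there, and control replicate 3 with mutant replicate 2 had 0.607. The remaining different-numbered samples had -0.844 to -0.575. For the members the numbers thus did not mark the closest match of replicates 2 and 3. The reported fit and the ratios carry no block, and the blocked fit is an alternative. What a number shares is not given in the sources used here. At these depths counting error is small beside the spread between replicates.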

Additional observations from a re-analysis of the deposited data

How the results depend on the processing

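The median log2 fold change of the respiratory chain genes stayed above 0 in all 20 alternatives, from 0.10 (total counts alone, and without mutant replicate 3) to 0.24 (without mutant replicate 1). The number of members called higher and lower, 3 and 0 in the reported fit, was 21 and 2 with the replicate block, 21 and 6 with the block and the trend over exon length removed, 12 and 3 with that trend removed alone, and 10 and 1 with DESeq2. It was 1 and 3 with total counts alone, 1 and 0 with upper-quartile factors and 1 and 0 from lane 3 alone (2 lower at an unadjusted p under 0.05 with upper-quartile factors, 1 from lane 3). The cause was not tested. Leaving out a replicate gave 0 to 29 members called higher and 0 lower (0 to 4 at an unadjusted p under 0.05), and 2611 to 5895 of all genes against 4547; fewer samples enter those fits. The 29 came without mutant replicate 1, and each of the other 5 gave 0; the lowest counts over all genes were 2611 without mutant replicate 2 and 2754 without control replicate 3.

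For 39 genes described singly, 780 values over the alternatives held 33 calls gained and 42 changes of sign among values that were not called. The 23 calls lost and 0 reversals of a called direction concern only ATPsynC, COX7AL2 and ND-B17, the genes called in the reported fit. They were called in 14, 13 and 10 of the 20 alternatives. With 3 samples per genotype, a difference larger than 1.5-fold was not excluded for the 23 members whose interval reaches past that size. Sequences of these genes, GC content and RNA quality were not analysed here.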
